A study of Homo sapiens with 10 samples.

Results

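The proteasome is the protease complex that degrades ubiquitin-tagged proteins, and its genes were followed here through acute and long-term inhibition of the RET kinase. The genes were taken by name from the deposited table of 58735 genes: a row was kept where it was annotated as protein coding and its symbol began with PSMA, PSMB, PSMC, PSMD, PSME, PSMF or PSMG. This gave 49 genes. Of these, 45 reached 1 FPKM (fragments per kilobase of gene length, scaled to the library's reads) in at least 2 of the 10 libraries and were tested. PSMC3IP, among the 45, shares a symbol stem with the ATPase gene PSMC3 but encodes a recombination cofactor and is no proteasome subunit.

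RNA had been sequenced from TPC-1, a human papillary thyroid carcinoma cell line that carries a CCDC6-RET fusion. Every group was made from this line, so all carry the fusion. In the BLU667 group, parental cells had received 5 µM BLU667 (pralsetinib, a RET inhibitor) for 24 h. BR8, BR10 and BR16 are adapted colonies, which had come up under the same drug at 5 µM. Their exposure is given as over 50 days in the sample labels and as over 5 months in the series design. Parental cells with the solvent DMSO for 24 h were the control. Each group had 2 libraries, described as biological replicates, and each colony is a single derivation, so 2 libraries of a colony do not show how colonies vary.

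The proteasome has a barrel-shaped 20S core of 2 outer alpha rings and 2 inner beta rings, with the proteolytic sites on the inner face of the beta rings. A 19S cap on the barrel recognises ubiquitin chains, removes them and threads the substrate into the core with a ring of ATPases. Interferon and antigen-presenting cells exchange the constitutive catalytic subunits PSMB5, PSMB6 and PSMB7 for PSMB8, PSMB9 and PSMB10, which makes the immunoproteasome, and the 11S cap of PSME1 and PSME2 can replace the 19S cap. The transcription factor NFE2L1 raises subunit genes through antioxidant response elements (ARE) when proteasome capacity falls short.

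Promoter sequence is shown for 4 genes called lower or higher in BLU667. PSMB3 and PSMD3, a core and a cap subunit, were among the genes with lower levels in BLU667, and PSMB8 and PSME1 were the only 2 of the 45 called higher there. The sequences are from RefSeq, build GRCh38.p14, read 5′ to 3′ on the gene's strand, and hold the bases before the RefSeq start that precede any exon of the gene in GENCODE release 29. Capitals mark matches to the ARE core TGACNNNGC, to CCAAT (the box bound by NF-Y, or its reverse complement) and to the interferon-gamma motif TTCNNNGAA. Among other genes called lower, some held a match, while PSMB2, PSMD2 and PSMD11 held none in the 250 bases before the RefSeq start. The PSMB3 sequence lies at chr17:38752491-38752735 and the PSMD3 sequence at chr17:39980557-39980796, both on the plus strand. The PSMB8 sequence lies at chr6:32844704-32844929 on the minus strand and the PSME1 sequence at chr14:24135944-24136157 on the plus strand.
PSMB3: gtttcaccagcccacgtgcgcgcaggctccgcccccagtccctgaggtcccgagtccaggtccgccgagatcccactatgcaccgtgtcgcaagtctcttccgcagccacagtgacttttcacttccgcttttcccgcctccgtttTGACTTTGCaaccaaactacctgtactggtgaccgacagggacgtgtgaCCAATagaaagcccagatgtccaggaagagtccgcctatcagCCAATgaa
PSMD3: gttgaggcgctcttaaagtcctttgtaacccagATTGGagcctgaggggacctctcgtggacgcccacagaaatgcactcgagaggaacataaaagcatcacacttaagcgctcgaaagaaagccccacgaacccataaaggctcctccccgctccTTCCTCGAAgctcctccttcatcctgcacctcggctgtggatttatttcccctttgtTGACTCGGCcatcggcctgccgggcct
PSMB8: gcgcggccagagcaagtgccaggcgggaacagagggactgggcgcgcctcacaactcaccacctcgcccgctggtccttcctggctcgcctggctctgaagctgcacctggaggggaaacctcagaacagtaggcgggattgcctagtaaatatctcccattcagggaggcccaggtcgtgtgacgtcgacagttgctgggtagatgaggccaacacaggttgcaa
PSME1: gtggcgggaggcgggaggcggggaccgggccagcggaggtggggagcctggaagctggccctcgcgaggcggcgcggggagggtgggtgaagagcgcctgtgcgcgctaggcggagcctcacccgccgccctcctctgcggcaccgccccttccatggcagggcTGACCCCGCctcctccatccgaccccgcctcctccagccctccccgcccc

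The ARE core began 104 bases before the RefSeq start in PSMB3, 37 bases before it in PSMD3 and 86 bases before it in PSME1. PSMB8 held no match to these motifs in this window. Its gene lies in the MHC region at chr6:32840717-32844703 on the minus strand, and PSMB9 lies beside it at chr6:32844136-32859585 on the plus strand, so that their ends overlap. A second set of sequences, 30 bases each, shows matches to the interferon-stimulated response element (GAAA, any 2 bases, GAAA), in capitals, in PSMB10 (chr16:67936852-67936881, minus strand), PSME2 (chr14:24146619-24146648, minus strand) and PSMG4 (chr6:3258904-3258933, plus strand). The 3 genes were picked because they hold the same 10 letters, in an immunoproteasome subunit, an 11S subunit and a core assembly chaperone. The core subunit genes PSMA4 and PSMB4 also hold a match, with other letters. Unlike the first set, these 3 sites lie before the RefSeq start but inside the span that the deposited annotation gives the gene.
PSMB10: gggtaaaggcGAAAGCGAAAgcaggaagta
PSME2: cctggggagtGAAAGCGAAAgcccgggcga
PSMG4: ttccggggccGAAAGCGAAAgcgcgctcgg

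Over the 250 bases before the RefSeq start, searched on both strands, 39 of the 45 tested genes had a window. The ARE core was found in 10 of them (25.6%), against 11% of 27305 windows of all genes, and CCAAT in 18 (46.2%), against 33%. The interferon-stimulated response element was found in 5 (12.8%), against 3.07%, and TTCNNNGAA in 4 (10.3%), against 6.78%. The GC box GGGCGG was found in 25 (64.1%), against 42.3%, the ETS core GGAAGT in 17 (43.6%), against 19.9%, and TATAAA in 4 (10.3%), against 11.1%. The 39 windows belong to genes that passed the filter, whereas the 27305 were not limited to such genes. Whether the differences in share follow from that was not tested. These matches are letters in a window and describe neither binding nor use of a start site. A few motif matches can overlap one another, and some RefSeq starts lie downstream of the first exon that GENCODE lists.

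The libraries held 15243703 to 21904245 reads in genes, and a total of 13927 genes were tested. Mitochondrial transcripts took 3.23% to 6.49% of the reads. Of 7 thyroid markers, PAX8 and FOXE1 reached 1 FPKM in some library, and the rest, TG, TSHR, NKX2-1 and SLC5A5 among them, stayed below 1 FPKM, so that differentiated thyroid genes were near 0. None of 6 leukocyte markers and none of 3 endothelial markers reached 1 FPKM in any library. All 3 fibroblast markers reached it, with a summed level of 1.83 to 29.5 FPKM over the libraries, and they moved with the groups. PDGFRB stood at 11.8 and 15.4 FPKM in BLU667, at 0.108 to 1.53 FPKM in the colonies and at 2.80 and 2.71 FPKM in DMSO. PDPN stood at 11.5 and 10.5 FPKM in BLU667, at 0 to 2.21 FPKM in the colonies and at 24.6 and 26.4 FPKM in DMSO. COL1A1 stood at 1.09 and 1.69 FPKM in BLU667 and at 0.527 and 0.380 FPKM in DMSO. In the colonies it ranged from 0.454 FPKM in BR10 to 2.23 FPKM in BR16, so the 3 markers had no common direction. Their part in the results was not tested. Differences between libraries also followed the GC content of transcripts, most of all between the 2 DMSO libraries (Spearman's rho across 13923 genes -0.627) and the 2 BR10 libraries (0.456). The tested proteasome genes had a median GC content of 49.05%, against 48.09% over all tested genes, and PSMB10 was the richest at 61.99%. RNA of whole cultures was measured as a share of all reads, so that a change in every cell, a change in the make-up of the culture and a change in total RNA cannot be told apart.

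Of the 49 genes, 4 did not pass the filter. PSMA8, an alpha subunit of testis, and PSMB11, the catalytic subunit of the thymus, had 0 reads in all 10 libraries. A count of 0 allows up to 3 reads, which is 0.0698 to 0.1 FPKM for PSMA8 and 0.0627 to 0.0899 FPKM for PSMB11. PSMA6, an obligate alpha-ring subunit, was listed at 0.38 to 0.821 FPKM, and PSMD9, a 19S assembly chaperone, at 0.537 to 1.11 FPKM with 1 library over 1 FPKM. The level of PSMA6 stood far below those of its ring partners PSMA3 and PSMA7, while PSMA2 of the same ring was also low, at 0.877 to 2.19 FPKM. PSMA6 shares 14.1% of its exon length with another gene, and whether that bears on its level was not tested.

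**Figure D1:**
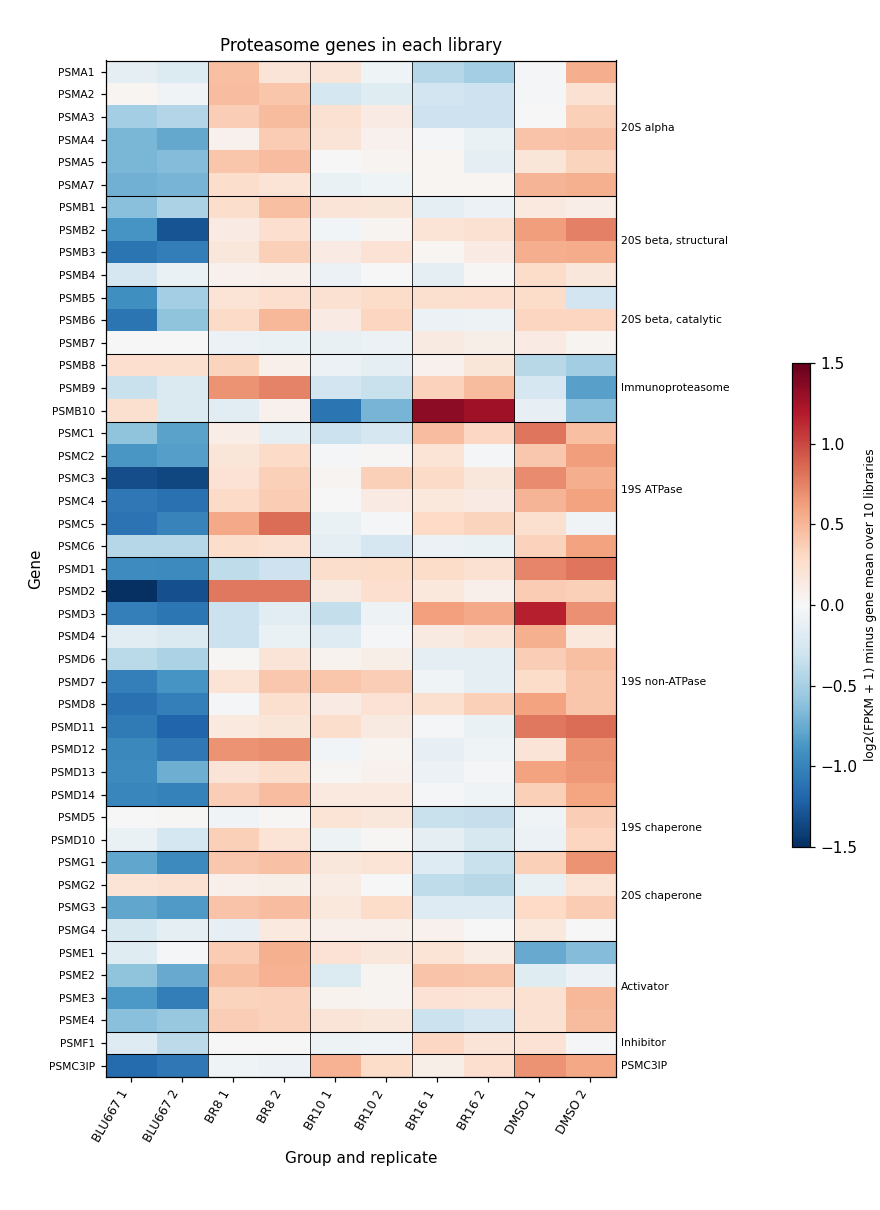
Level of the 45 tested genes in the 10 libraries, as log2(FPKM + 1) minus the gene's mean over the libraries (colour scale), with genes in rows by role and 2 libraries per group in columns. The BLU667 columns are blue through the 19S rows, where all 17 subunits were lower than in DMSO, and the PSMB8 row is red there.

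Acute treatment lowered the genes of the 19S cap as a block. All 17 tested 19S subunits, 6 ATPases and 11 non-ATPase subunits, fell in BLU667 against DMSO, with a median log2 change of -1.47. Over all tested genes, the median was -0.01 and 31.2% were called lower. Of the 45 proteasome genes 34 were called lower (75.6%), 2 higher and 9 not at all. Of all tested genes 29% were called higher, and 60.2% in either direction. A call was a Benjamini-Hochberg adjusted p below 0.05 over all 13927 genes, from limma on log2(FPKM + 1), a scale that understates changes of low genes.

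PSMD3, a scaffold subunit of the 19S lid, had the lowest log2 change on this scale with all libraries in the fit, close to PSMC3 and PSMD11. It stood at 11.98 and 11.43 FPKM in the BLU667 libraries and at 58.2 and 41.7 FPKM in the DMSO libraries (log2 change -1.98 ± 0.16, SE, adjusted p = 1.443e-05). PSMC3, an ATPase of the base ring, stood at 14.8 and 14.3 FPKM in BLU667 and at 63.6 and 57.0 FPKM in DMSO (-1.97 ± 0.12, adjusted p = 3.232e-06). Groups did not overlap in either gene, and 39% of all tested genes had both BLU667 libraries below both DMSO libraries. PSMD11, a lid subunit that holds cap and core together, stood at 9.79 and 8.86 FPKM in BLU667 and at 37.8 and 39.1 FPKM in DMSO (-1.94 ± 0.08, adjusted p = 5.202e-07). The smallest falls of the cap were those of PSMD4, the ubiquitin receptor of the base (-0.54 ± 0.13), and PSMD6, a lid subunit (-0.84 ± 0.09). PSMD14, the deubiquitinase that clips the chain from the substrate, fell by 1.47 on the log2 scale.

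Summed over the 11 non-ATPase subunits, the level was 190 ± 6.76 FPKM in BLU667, 492 ± 19.3 in BR8, 418 ± 16.6 in BR10, 421 ± 4.42 in BR16 and 550 ± 14.3 in DMSO (SD, n = 2 each). The 6 ATPases summed to 61.5 ± 0.421 FPKM in BLU667, 167 ± 10.1 in BR8, 133 ± 9.71 in BR10, 147 ± 5.71 in BR16 and 186 ± 2.13 in DMSO. Both sums were lowest in BLU667 and highest in DMSO, with the colonies in between. PSMD2 carries much of the non-ATPase sum. Without it, the sum was 144 ± 0.169 FPKM in BLU667, 269 ± 19.1 in BR8, 272 ± 7.98 in BR10, 281 ± 1.38 in BR16 and 384 ± 13.2 in DMSO, so that the 3 colonies lay close together.

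The median fall of the 20S core was smaller than that of the cap, but their ranges overlapped. Log2 changes ran from -1.78 to -0.08 in the core and from -1.98 to -0.54 in the cap. Of 13 tested constitutive core genes, 10 fell in BLU667 and 3 were not called, with a median log2 change of -0.71; whether core and cap differ was not tested. All 4 structural beta subunits were called lower, from PSMB4 (-0.40 ± 0.09) to PSMB2 (-1.78 ± 0.13), and PSMB3 fell by 1.61. In the alpha ring 4 of 6 were called lower, among them PSMA7 (-1.23 ± 0.07) and PSMA4 (-1.16 ± 0.11). PSMA1 (-0.44 ± 0.18, adjusted p = 0.0664) and PSMA2 (-0.12 ± 0.12, adjusted p = 0.421) were not. PSMA1 shares 24.7% of its exon length with AC018523.2 on the same strand, and PSMA2 shares 34.6% with other genes, MRPL32 on the other strand among them, in libraries that did not keep strand. The values of both are uncertain.

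**Figure D2:**
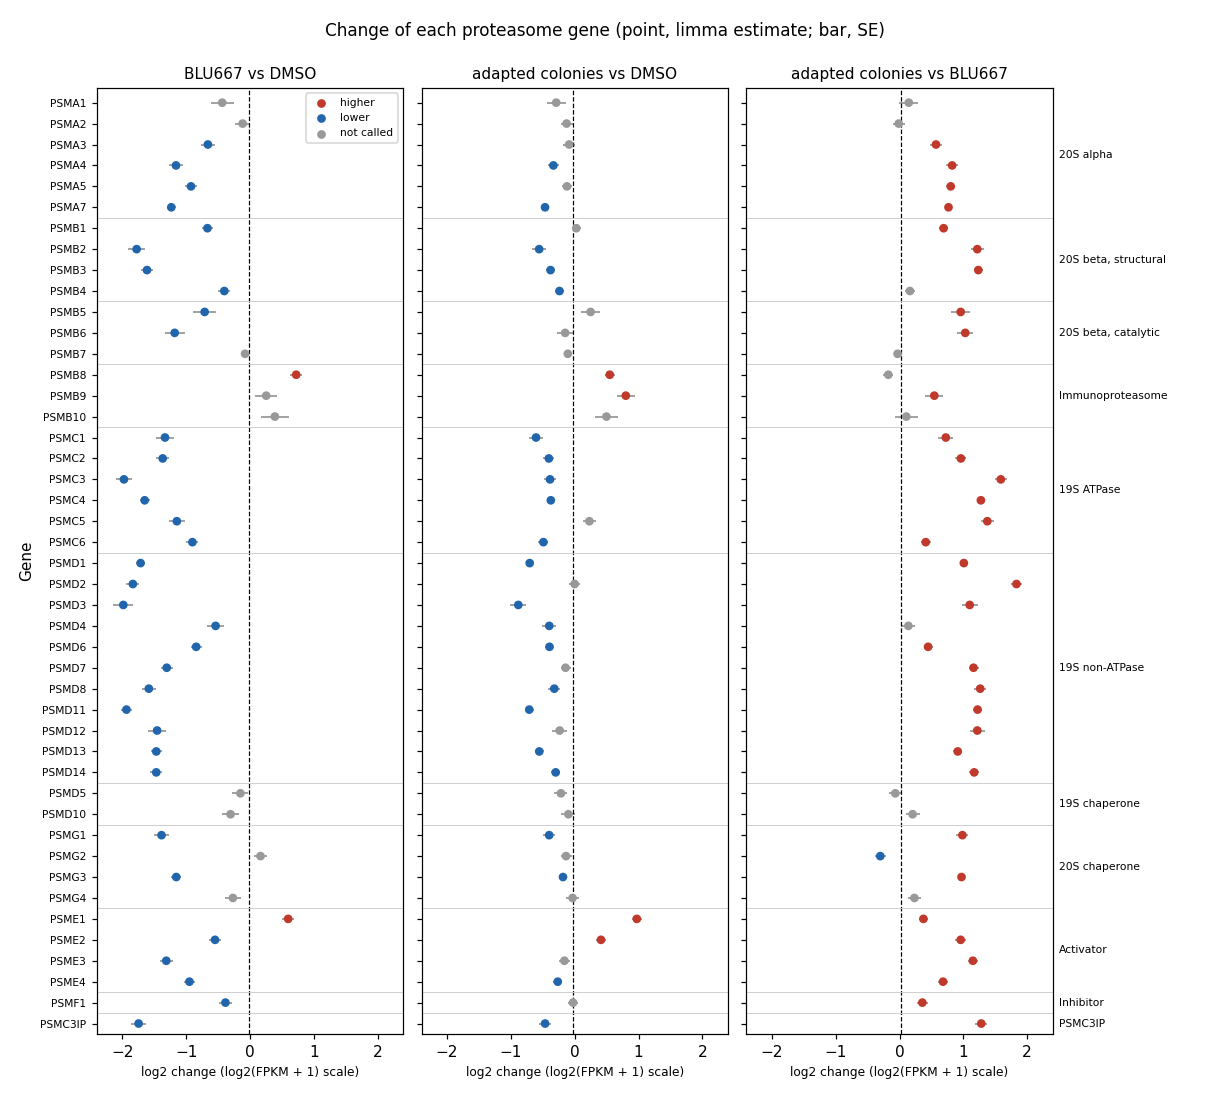
Log2 change of each tested gene (points, limma estimates on log2(FPKM + 1); bars, SE) in BLU667 against DMSO, the adapted colonies against DMSO and the adapted colonies against BLU667, with genes in rows by role. Red points were called higher, blue points lower and grey points were not called; the dashed line is the median over all tested genes, and the first panel holds 34 lower and 2 higher calls.

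The 3 constitutive catalytic genes did not move alike. PSMB5, the chymotrypsin-like subunit, stood at 36.0 and 48.1 FPKM in BLU667, 79.7 and 82.1 in BR8, 80.9 and 84.0 in BR10, 81.6 and 82.4 in BR16, and 83.6 and 56.4 FPKM in DMSO. Both BLU667 libraries lay below the other 8, but the DMSO libraries were far apart. Its fall in BLU667 (-0.71 ± 0.18, adjusted p = 0.0101) was -0.43 without DMSO replicate 1, where it was still called, and was not called without BLU667 replicate 1 (-0.51, adjusted p = 0.0735) or with only the BLU667 and DMSO libraries fitted (adjusted p = 0.0763). PSMB6, the caspase-like subunit, stood at 24.4 and 34.8 FPKM in BLU667, 65.2 and 76.1 in BR8, 58.1 and 66.9 in BR10, 50.1 and 50.7 in BR16, and 67.2 and 67.2 FPKM in DMSO. It fell in BLU667 (-1.18 ± 0.16, adjusted p = 0.000291). PSMB7, the trypsin-like subunit, ranged from 100 to 118 FPKM over the 10 libraries, and its change in BLU667 (-0.08 ± 0.07, adjusted p = 0.361) was not called.

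None of the 3 immunoproteasome genes was called lower in BLU667. PSMB8 stood at 18.98 and 18.85 FPKM in BLU667, 20.1 and 16.7 in BR8, 14.8 and 14.3 in BR10, 16.5 and 18.0 in BR16, and 11.5 and 10.6 FPKM in DMSO. All 8 drug-exposed libraries lay above both DMSO libraries. Of all tested genes, 37.7% had both BLU667 libraries above both DMSO libraries, and 17.8% had all 6 colony libraries above them. The share with both patterns was not counted. PSMB8 was called higher in BLU667 (0.72 ± 0.10, adjusted p = 0.000327), with 20.6% of its exon length shared with PSMB9 and the antisense gene PSMB8-AS1. PSMB9 stood at 1.28 and 1.48 FPKM in BLU667, 3.57 and 3.83 in BR8, 1.35 and 1.29 in BR10, 2.65 and 3.01 in BR16, and 1.42 and 0.638 FPKM in DMSO. BLU667 and DMSO overlapped in PSMB9 (0.25 ± 0.17, adjusted p = 0.228); without DMSO replicate 1 the change was 0.54 and called (adjusted p = 0.00632), and without DMSO replicate 2 it was -0.03.

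PSMB10 stood at 2.45 and 1.52 FPKM in BLU667, 1.60 and 2.05 in BR8, 0.367 and 0.809 in BR10, 6.41 and 6.08 in BR16, and 1.69 and 0.887 FPKM in DMSO. BR16 was clear of all other libraries, and BR10 was lowest. The change in BLU667 (0.39 ± 0.22, adjusted p = 0.161) was not called, and it was called with each library's GC trend removed (0.60, adjusted p = 0.0148). Its exons share 34.8% of their length with a gene on the same strand, AC040162.1, which had mean levels of 0.0613 to 0.138 FPKM over the groups.

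**Figure D3:**
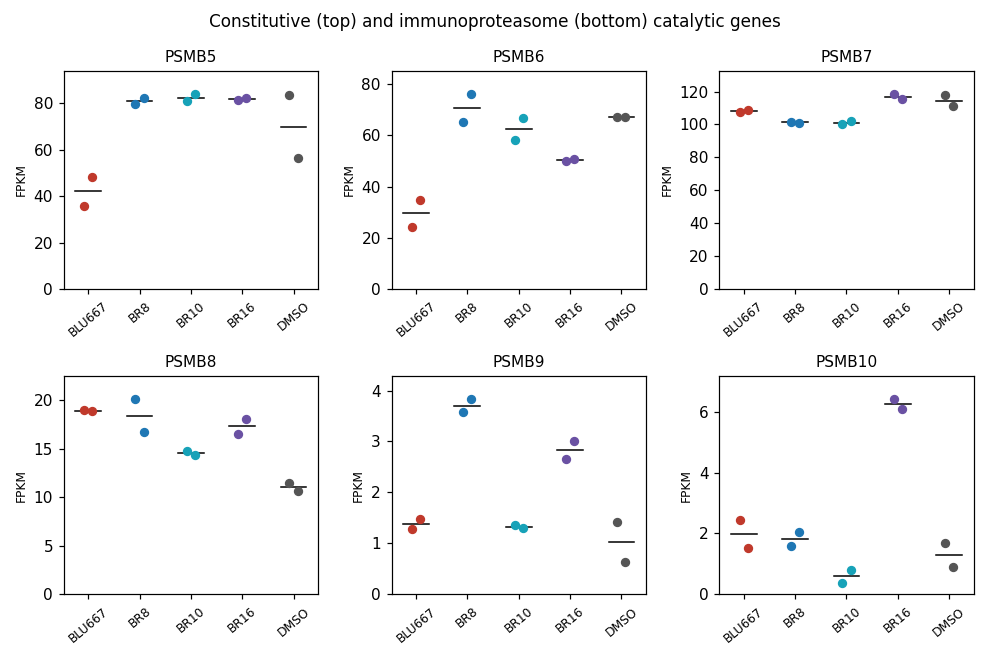
FPKM of the constitutive catalytic genes (top) and the immunoproteasome catalytic genes (bottom) in each library (points), with the mean of 2 libraries (line), by group. PSMB8 is above DMSO in all 8 other libraries, PSMB7 stays between 100 and 118 FPKM, and PSMB10 is highest in BR16 at 6.41 and 6.08 FPKM.

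Of the summed FPKM of the 6 catalytic genes, the immunoproteasome genes made up 11.1% ± 1.18 in BLU667, 8.65% ± 0.914 in BR8, 6.28% ± 0.258 in BR10, 9.57% ± 0.400 in BR16 and 5.04% ± 0.167 in DMSO (SD, n = 2 each). Every drug-exposed library lay above both DMSO libraries, which held 5.16% and 4.92%, but PSMB8 made up most of the immunoproteasome sum in every library. No test was made of this share. The PSMB8 share of PSMB8 plus PSMB5 was 31.4% ± 4.51 in BLU667, against 14.0% ± 2.67 in DMSO, with a higher PSMB8 and a lower PSMB5 both entering it. In the colonies this share was 18.5% ± 2.29 in BR8, 15.0% ± 0.639 in BR10 and 17.4% ± 0.785 in BR16, where BR10 overlapped DMSO. The PSMB9 share of PSMB9 plus PSMB6 was 1.895% to 2.271% in BR10, overlapping DMSO (0.940% to 2.071%), and was higher in the other groups. The PSMB10 share of PSMB10 plus PSMB7 was 1.378% to 2.224% in BLU667, overlapping DMSO (0.792% to 1.414%). It lay below DMSO in BR10 (0.366% to 0.788%) and above it in BR8 and BR16.

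The activators moved in different directions in BLU667. PSME1, the alpha subunit of the 11S cap, stood at 70.7 and 79.2 FPKM in BLU667, 106 and 117 in BR8, 94.0 and 90.5 in BR10, 92.8 and 87.2 in BR16, and 47.29 and 50.99 FPKM in DMSO. It was called higher in BLU667 (0.60 ± 0.09, adjusted p = 0.000647). Again all 8 drug-exposed libraries lay above DMSO. Of all tested genes, 37.7% showed this for BLU667 alone and 17.8% for the colonies alone, and the share with both was not counted. PSME2, the partner of PSME1 in the 11S ring, stood at 11.6 and 10.3 FPKM in BLU667, 25.2 and 26.6 in BR8, 15.6 and 18.8 in BR10, 24.7 and 24.6 in BR16, and 15.88 and 17.04 FPKM in DMSO. It fell in BLU667 (-0.55 ± 0.10, adjusted p = 0.00179), so that the 2 subunits of 1 ring were called in opposite directions.

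PSME3, the nuclear 11S activator, stood at 15.9 and 14.0 FPKM in BLU667, 37.7 and 38.1 in BR8, 31.1 and 30.6 in BR10, 34.7 and 34.6 in BR16, and 35.0 and 42.5 FPKM in DMSO (-1.31 ± 0.10 in BLU667, adjusted p = 1.374e-05). PSME4, the PA200 activator linked to histone degradation, stood at 6.86 and 7.16 FPKM in BLU667, 14.6 and 14.4 in BR8, 12.9 and 12.7 in BR10, 8.67 and 9.19 in BR16, and 13.2 and 15.8 FPKM in DMSO (-0.95 ± 0.09 in BLU667, adjusted p = 4.393e-05). Both fell in BLU667, and its libraries lay below the other 8. PSMF1, the PI31 inhibitor, fell less (-0.38 ± 0.10, adjusted p = 0.0125), and this call was lost without DMSO replicate 1, without BLU667 replicate 2, with quantile normalization (-0.22) and with only these 2 groups fitted.

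**Figure D4:**
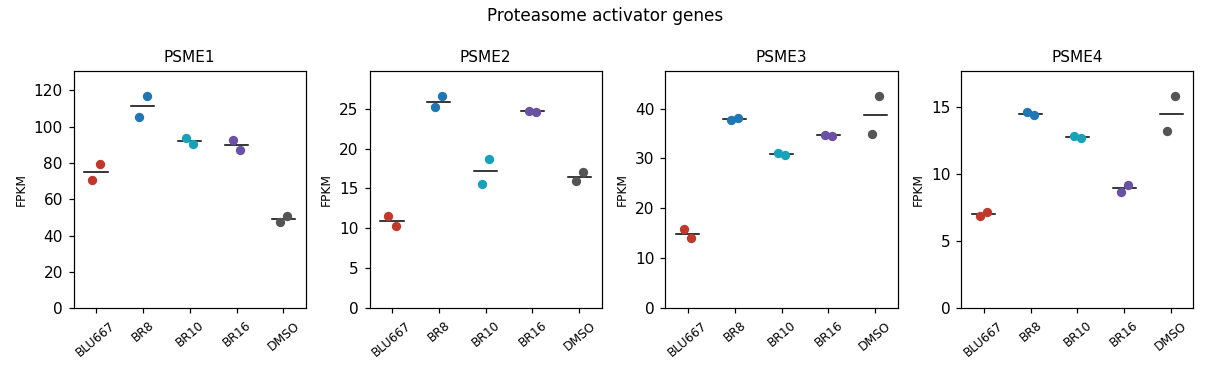
FPKM of the activator genes PSME1 to PSME4 in each library (points), with the mean of 2 libraries (line), by group. PSME1 is lowest in DMSO at 47.29 and 50.99 FPKM, whereas PSME2, PSME3 and PSME4 are lowest in BLU667.

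Among the assembly chaperones, PSMG1 (-1.39 ± 0.12) and PSMG3 (-1.16 ± 0.08) fell in BLU667, while PSMG2 (0.16 ± 0.11), the partner with which PSMG1 builds the alpha ring, and PSMG4 (-0.27 ± 0.13), the partner of PSMG3, were not called. Neither of the tested 19S chaperones PSMD5 and PSMD10 was called. PSMC3IP, the recombination cofactor, stood at 0.155 and 0.224 FPKM in BLU667 and at 3.12 and 2.85 FPKM in DMSO (-1.75 ± 0.12). Both BLU667 libraries lay below the other 8 libraries in 33 of the 45 genes, against 20.7% of all tested genes. The mean of BLU667 was the lowest of the 5 groups for 34 of the 45, against 29.4% of all tested genes.

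Genes that act with the proteasome but carry other symbols were also measured, and their counts stand against 29% of all tested genes called higher and 31.2% called lower. Of 4 subunits and assembly factors outside the symbol rule, 3 fell in BLU667: the ubiquitin receptor ADRM1 (-1.62 ± 0.11), the core chaperone POMP (-1.34 ± 0.08) and the small lid subunit SEM1 (-0.67 ± 0.16, not called without BLU667 replicate 2). Of 10 genes for ubiquitin handling at the proteasome 7 fell. Of 6 genes for ubiquitin and its activation, 3 fell and 1 rose, the ubiquitin-ribosome fusion gene RPS27A (0.45 ± 0.10).

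NFE2L1 stood at 43.9 and 41.2 FPKM in BLU667, against 36.54 and 26.04 FPKM in DMSO (0.45 ± 0.14, adjusted p = 0.023). This call rested on single libraries: the change was 0.21 without DMSO replicate 2, where it was not called, and the call was also lost without either BLU667 library, while without DMSO replicate 1 the change was 0.69 and called. Of 6 genes of this control list 2 were called higher and 2 lower, shares near those of all tested genes. Those called higher were NFE2L1 and the related NFE2L2 (0.49 ± 0.14), which was 0.26 and not called without DMSO replicate 1 and was not called without BLU667 replicate 1. Those called lower were the protease DDI2 that activates NFE2L1 (-0.59 ± 0.09) and the segregase VCP (-0.92 ± 0.07). Of 6 genes of interferon control and antigen processing, 3 rose and 1 fell. The number of rises called was not the same in every fit with a library left out. B2M, the light chain of MHC class I, rose by 0.67 ± 0.09 and the peptide transporter subunit TAP1 by 0.61 ± 0.08, while TAP2, the partner of TAP1, fell (-1.03 ± 0.12).

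In the adapted colonies, taken as the mean of 3 colony means against DMSO, fewer genes were called and the changes were smaller. Of the 45 genes, 4 were called higher (22.9% of all tested genes were) and 22 lower (26.3% of all; 49.2% in either direction), with a median of -0.24, against -0.03 over all genes. The SE of this comparison reflects libraries and not colonies. With the 3 colony means as replicates against the 2 DMSO libraries, limma called 1 gene higher, PSME1, and 0 lower, with 2 higher and 6 lower at an unadjusted p below 0.05, and 5.65% of all genes were called. Without DMSO replicate 1, 7 genes were called higher.

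Of the 17 tested 19S subunits 13 were called lower in the colonies, with a median of -0.40. PSMD3 stood at 20.1 and 22.5 FPKM in BR8, 19.6 and 24.0 in BR10, 39.6 and 38.3 in BR16, and 58.2 and 41.7 FPKM in DMSO (-0.88 ± 0.13 over the colonies, adjusted p = 0.00069). PSMD11 stood at 23.8 and 24.5 FPKM in BR8, 25.98 and 23.55 in BR10, 21.18 and 19.99 in BR16, and 37.8 and 39.1 FPKM in DMSO (-0.71 ± 0.07, adjusted p = 6.653e-05). In both genes all 6 colony libraries lay below both DMSO libraries. PSMD1, a large base subunit that docks receptors, also lay below DMSO throughout (-0.71 ± 0.06, adjusted p = 2.715e-05). With colony means as replicates these 3 falls were not called, at adjusted p = 0.173 for PSMD3, 0.0702 for PSMD11 and 0.156 for PSMD1.

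PSMD2 (0.00 ± 0.08) and PSMC5 (0.23 ± 0.10, adjusted p = 0.0927) were not called in the colonies. In the 20S core 5 of 13 genes were called lower, 2 in the alpha ring and 3 among the structural beta genes, and none of the 3 constitutive catalytic genes was called. All 6 colony libraries lay below both DMSO libraries in 16 of the 45 genes, a pattern shown by 17.3% of all tested genes, and above both in 2, PSMB8 and PSME1, a pattern shown by 17.8%.

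The genes called higher in the colonies were PSME1 (0.97 ± 0.07, adjusted p = 2.126e-05), PSMB9 (0.80 ± 0.14, adjusted p = 0.00185), PSMB8 (0.55 ± 0.08, adjusted p = 0.000749) and PSME2 (0.41 ± 0.08, adjusted p = 0.0039). All 4 belong to the immunoproteasome or the 11S cap. PSMB9 was 0.52 without DMSO replicate 2, still called. With colony means as replicates, PSME1 alone was called, and PSMB9 (adjusted p = 0.238), PSMB8 (0.141) and PSME2 (0.336) were not. PSMB10 (0.50 ± 0.18, adjusted p = 0.0503) was not called, and was called without DMSO replicate 1 (0.75) but not without DMSO replicate 2 (0.24).

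Against BLU667, the adapted colonies held higher levels of most of these genes. Of the 45 genes, 34 were called higher (75.6%, against 32.4% of all tested genes) and 1 lower (28.7% of all; 61.1% in either direction), with a median of 0.82, against 0.03 over all genes. With colony means as replicates, 25 genes were called higher and 0 lower, 29 and 0 at an unadjusted p below 0.05, and 20% of all genes were called in either direction. This comparison shares the BLU667 libraries with that against DMSO, so a low value in them enters both.

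PSMD2, the large base subunit that binds shuttle receptors, rose most. It stood at 222 and 223 FPKM in BR8, 140 and 153 in BR10, 144 and 135 in BR16, and 41.4 and 50.7 FPKM in BLU667, with 167 and 165 FPKM in DMSO (1.83 ± 0.08 against BLU667, adjusted p = 9.137e-07). PSMC3 (1.59 ± 0.10) and PSMC5 (1.38 ± 0.10) followed, and PSMD4 was the only 19S subunit not called (0.14 ± 0.11). PSMG2 was the only gene called lower (-0.30 ± 0.09, adjusted p = 0.0156), and this call was lost without BLU667 replicate 1 or replicate 2, while without BR8 replicate 1 there were 2 calls of a lower level.

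Each colony was also set against DMSO, with the same 2 DMSO libraries in every comparison. In BR8, 7 of the 45 genes were called higher (24% of all tested genes) and 14 lower (27.3%; 51.3% in either direction). PSMB9 rose most (1.24 ± 0.17), followed by PSME1 (1.16 ± 0.09) and PSMB8 (0.68 ± 0.10). PSMD2 (0.42 ± 0.10) and PSMC5 (0.61 ± 0.12) rose while PSMD3 (-1.18 ± 0.16) and PSMD1 (-1.11 ± 0.07) fell, so that the cap of BR8 did not move as a block. PSMC5 shares 19.5% of its exon length with FTSJ3, whose mean level was also highest in BR8 (22.9 FPKM) and lowest in BLU667 (8.45 FPKM). PSMC3IP fell by 0.70. Without BR8 replicate 1, 7 genes were called lower, and without DMSO replicate 2, 11 were called higher.

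BR10 had 2 genes called higher (19.2% of all tested genes), PSME1 (0.90 ± 0.09) and PSMB8 (0.37 ± 0.10), and 19 lower (21.5% of all; 40.8% in either direction). Its largest falls were those of PSMD3 (-1.14 ± 0.16), the ATPase PSMC1 (-0.92 ± 0.14) and PSMB2 (-0.69 ± 0.13). PSMC1 shares 75.8% of its exon length with NRDE2 on the other strand and is uncertain. The PSMB8 call was lost without DMSO replicate 2 (0.31) and without either BR10 library (0.34 and 0.39). Without BR10 replicate 1, 10 genes were called lower, without DMSO replicate 1, 4 were called higher, and without either BR10 library, 1 was called higher.

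BR16 had 5 genes called higher (21.9% of all tested genes) and 26 lower (23.6%; 45.5% in either direction). All 3 immunoproteasome genes rose in BR16: PSMB10 (1.69 ± 0.22, adjusted p = 0.000457), PSMB9 (0.94 ± 0.17) and PSMB8 (0.60 ± 0.10). PSME1 (0.86 ± 0.09) and PSME2 (0.56 ± 0.10) rose with them. All 6 tested alpha-ring genes fell, most of all PSMA1 (-0.73 ± 0.18), and PSMD11 (-0.87 ± 0.08) and PSMG1 (-0.78 ± 0.12) had the largest falls. PSMA1 was -0.45 without DMSO replicate 2, still called, and was not called without BR16 replicate 2. Without BR16 replicate 2, 15 genes were called lower, and without DMSO replicate 1, 8 were called higher. BR16 against DMSO also had a GC trend (rho 0.267), opposite to BR8 (-0.287) and BR10 (-0.242), and with each library's trend removed PSMB10 rose by 1.44.

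Among the 3 colonies, 28 of the 45 genes differed by limma's moderated F test, against 58.1% of all tested genes. BR8 had 11 genes higher than BR10 and 2 lower, where 11.3% and 11.5% of all tested genes were called (22.8% in either direction). It had 21 genes higher than BR16 and 6 lower, where 24.1% and 24.5% of all were called (48.6% in either direction). BR10 had 10 genes higher than BR16 and 8 lower, where 21.1% and 22% of all were called (43.1% in either direction). These counts moved with single libraries. The 11 became 6 without BR10 replicate 1, 7 without BR10 replicate 2 or either BR8 library, and 18 or 17 without DMSO replicate 1 or 2, while the 2 became 1 without BR10 replicate 1 or either BR8 library. The 21 became 13 without BR8 replicate 2 or BR16 replicate 1 and 11 without BR16 replicate 2, and the 6 became 3 without BR8 replicate 2 or any BR10 or BR16 library. The 10 became 3 without BR10 replicate 1 or BR16 replicate 2 and 5 without BR16 replicate 1, and the 8 became 4 or 5 without any of these colonies' libraries.

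PSMB10 differed most, with BR16 above BR10 by 2.20 (BR10 minus BR16, -2.20 ± 0.22, adjusted p = 0.000325) and above BR8 by 1.36 (BR8 minus BR16, -1.36 ± 0.22, adjusted p = 0.002). PSMB9 was higher in BR8 than in BR10 (1.02 ± 0.17, adjusted p = 0.00373). PSMB8 was not called between colonies (adjusted p of the F test 0.0525).

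Some cap subunits also differed between colonies, where 58.1% of all tested genes differed by the F test. PSMD1 stood at 24.4 and 25.8 FPKM in BR8, 38.8 and 39.2 in BR10, and 39.0 and 37.7 FPKM in BR16, and was lower in BR8 than in either. PSMD2 was higher in BR8 than in BR10 (0.60 ± 0.10) and BR16 (0.67 ± 0.10). PSMD3 was higher in BR16 than in BR8 (BR8 minus BR16, -0.85 ± 0.16) and BR10 (BR10 minus BR16, -0.81 ± 0.16). PSMD12, a lid subunit, was higher in BR8 than in BR16 (0.78 ± 0.14), and so were PSMG3 (0.63 ± 0.08) and PSME4 (0.64 ± 0.09).

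**Figure D5:**
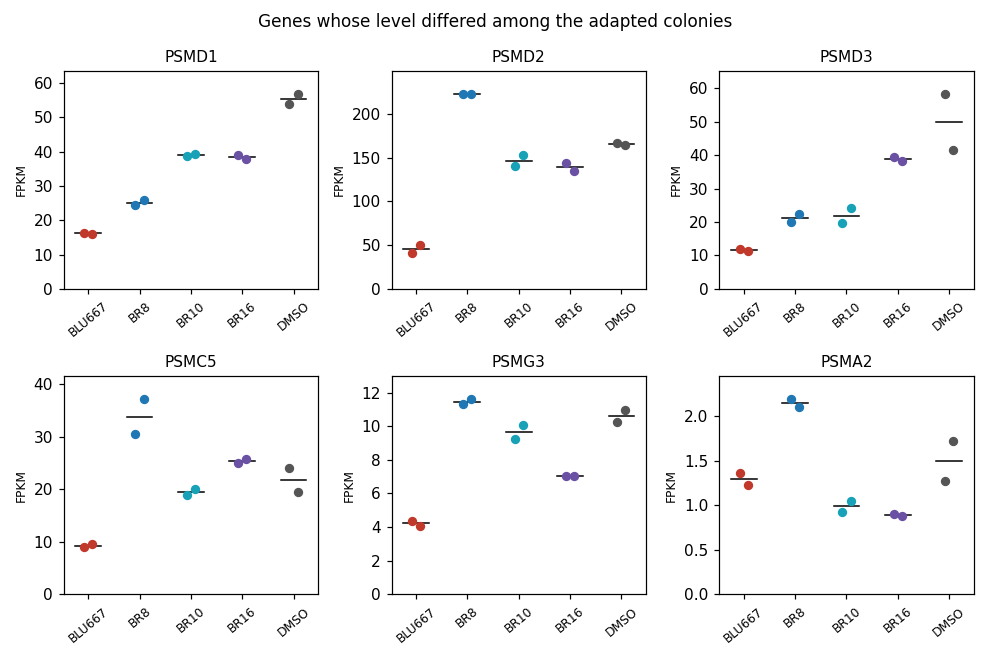
FPKM of 6 genes that differed among the adapted colonies in each library (points), with the mean of 2 libraries (line), by group. PSMD1 is lowest among colonies in BR8 at 24.4 and 25.8 FPKM and PSMD2 is highest in BR8 at 222 and 223 FPKM, while PSMD3 is highest among colonies in BR16.

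In the colonies the interferon list had 3 of 6 genes called higher and 0 lower against DMSO, where 22.9% of all tested genes were called higher and 26.3% lower. With colony means as replicates, limma called 0 genes of any partner list in either direction, and 5.65% of all genes. B2M (0.91 ± 0.07) and TAP1 (0.77 ± 0.06) rose over the colonies. ADRM1 was lower in the colonies (-0.78 ± 0.09). Of 10 genes for ubiquitin handling 8 were called lower and 0 higher, among them the deubiquitinase UCHL5 (-0.72 ± 0.12, and -0.46 without DMSO replicate 2). Fewer of the 10 were called lower without either DMSO library, and fewest without DMSO replicate 2. NFE2L1 stood at 32.3 and 34.3 FPKM in BR8, 31.3 and 33.8 in BR10, 60.1 and 57.5 in BR16, and 36.54 and 26.04 FPKM in DMSO, so that BR8 and BR10 lay within the DMSO range and BR16 above it. Over the colonies its change was 0.36 ± 0.11 (adjusted p = 0.0294). It was 0.13 and not called without DMSO replicate 2, 0.60 and called without DMSO replicate 1, and not called without BR8 replicate 2, BR10 replicate 2 or either BR16 library, or with colony means as replicates (adjusted p = 0.537).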

How the data were processed

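Per the labels' protocols, RNA came from a Direct-zol extraction in TRI reagent, GlobinClear was applied, and NEB libraries without strand information were sequenced. Per the submitters' processing notes, CASAVA, STAR 2.5 (GRCh38), HTSeq 0.6.1 and DESeq2 (version given as 2) were used; which annotation release was counted is not stated there. The values the authors deposited are FPKM. Multiplied by the length of the gene, 100% of them came out as whole reads (tolerance 0.05), and these reads give the depth. Genes that reached 1 FPKM in 2 or more libraries were tested with limma 3.58.1 under R 4.3.3. The response was log2(FPKM + 1), the prior variance followed a trend, and all 5 groups shared a model that left 5 residual degrees of freedom. The test was two-sided, with Benjamini-Hochberg adjustment over all genes. The fit was tested on simulated data for BLU667 against DMSO. There 51 of 98 simulated 2-fold changes were found, 92 of 95 at 4-fold, and 12 of the 12696 genes were called falsely. The simulated libraries had a fixed dispersion, few changed genes and no GC trend. These counts therefore do not give the error rates of the deposited data, where a gene not called may still have changed. Genes were given per-library values where they are catalytic, immunoproteasome or activator genes, or had the 3 largest rises or falls called in a comparison. Further genes are given by role. The members, role lists and partner lists were chosen with earlier results of these data known. Alternatives were a pseudocount of 0.1, no filter, a filter of 5 FPKM, quantile and median-of-ratios scaling, a replicate block, only the groups compared, each library left out, GC trends removed (loess, span 0.3), voom on the recovered reads, colony means as replicates and an absolute log2 change of at least 0.58. Comparisons between single colonies were added after seeing the data. Exon overlap and GC content used GENCODE release 29, whose coordinates match the deposited ones for these genes. Promoter windows were matched by symbol for 43 of 49 genes. Python 3.11.15 and matplotlib 3.10.9 drew the figures. A few partner and marker genes are not reported here by name.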

Additional observations from a re-analysis of the deposited data

Results flagged for a closer look

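The count of genes that differed among BR8, BR10 and BR16 was 28 of 45, by limma's moderated F test with adjustment over all genes; 58.1% of all tested genes differed. The 6 genes with the smallest adjusted p of that test were PSMB10 (0.00045), PSMD1 (0.000452), PSMG3 (0.000966), PSME4 (0.00172), PSMD2 (0.00193) and PSMA2 (0.00217). Each differed between colonies by more than the spread between the 2 libraries of a colony. PSMB10 had its highest level in BR16, PSMD1 its lowest among the colonies in BR8, and PSMD2 its highest in BR8. Among the colonies, PSMG3 and PSME4 were lowest in BR16. PSMA2 stood at 2.19 and 2.10 FPKM in BR8, 0.928 and 1.04 in BR10 and 0.900 and 0.877 FPKM in BR16, and shares exons with MRPL32, whose mean level was 22.8 FPKM in BR8, 14.7 in BR10 and 9.76 in BR16. The part of MRPL32 reads in the PSMA2 values was not tested.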

How the results depend on the processing

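Over the planned counts, 118 of 133 values under another setting were within 1.5 times the main count, as were 118 of 130 with a library left out. Of 7749 log2 changes of single genes recomputed, 7141 kept their side of the threshold, 416 lost a call, 192 gained a call and 0 changed sign while called. With an absolute log2 change of at least 0.58 added, calls fell to 5 lower in BR8, 1 higher and 7 lower in BR10, 5 lower in BR16, 2 higher and 4 lower in the adapted colonies against DMSO, and 0 lower in the adapted colonies against BLU667. Fitting no library beyond the groups compared, 7 were lower in BR8, and 1 was higher and 11 lower in BR10. With colony means as replicates, 1 was higher and 0 were lower against DMSO, and 0 were lower against BLU667. That last count, 1 in the main test, was 2 with quantile normalization and 3 with the GC trend removed. With a library left out, BLU667 against DMSO gave 2 to 3 higher and 33 to 36 lower, BR8 6 to 11 and 7 to 15, BR10 1 to 4 and 10 to 21, and BR16 5 to 8 and 15 to 28. The adapted colonies gave 4 to 7 higher and 17 to 24 lower against DMSO, and 33 to 35 higher and 0 to 2 lower against BLU667; the F test gave 19 to 34. Beyond the smaller number of libraries or the added threshold, the cause was not tested. The replicate numbers gave no sign of pairing: deviations of same-numbered libraries correlated at -0.163 to 0.109 over 10 pairs of groups, 1 of them over 0.1. GC trends of single libraries enter these deviations, so the correlations cannot show whether samples were paired. With a replicate block, higher and lower calls were 2 and 34 in BLU667, 6 and 12 in BR8, 2 and 16 in BR10, 5 and 27 in BR16, 4 and 21 in the adapted colonies against DMSO and 34 and 1 against BLU667, and 26 genes differed by the F test. A filter of 5 FPKM moved the median of all genes to -0.107 in BLU667 against DMSO, far less than the shift of the 19S genes. PSMA8 and PSMB11 had no reads, and PSMA6, PSMA2, PSMB9, PSMB10 and PSMG4 stood at few FPKM, which limits what their values show. The part of depth, gene length and shared exons in these low levels was not tested. PSMB9 had 81 and 31 reads in the DMSO libraries.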
